A study of Mus musculus with 3 samples.

Results

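The macrophage core genes described here are 10 genes by which resident macrophages are commonly recognised: C1qa, C1qb, C1qc, Csf1r, Adgre1, Cd68, Ctss, Trem2, Lyz1 and Lyz2. Their probes were found by matching the transcript accession of each array probe to these symbols. Of the 10 genes, 9 had a match, through 12 probes, among 20577 named genes in all. No probe was matched to Cd68, which is therefore not analysed here.

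RNA of mouse cells, all labelled female, was hybridised to 3 one-colour arrays, 1 for each group. iHep were hepatocyte-like cells, made from spleen fibroblasts with a lentivirus labelled LV-3TF and collected 14 days after transduction. PH were hepatocytes used fresh after isolation, as a positive control. MF were fibroblasts cultured from spleens remodelled with SiO2, which had received the control lentivirus LV-NC and were collected on the same day after it. iHep thus share their origin in remodelled spleen and their culture with MF, whereas PH have no label of culture or transduction. Each RNA was a pool of 5 samples per the series' design text, the labels do not spell out what LV-3TF carried, and they name no step that would have removed other spleen cells from MF. The RNA was prepared with a kit for blood. With a single array for each group there are no replicates, no test could be made, and "higher" and "lower" describe these arrays.

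Macrophages arise and survive under the receptor tyrosine kinase CSF1R, which binds the cytokines CSF1 and IL34. In tissues they engulf dying cells and debris, break them down in lysosomes rich in cathepsins, and secrete complement C1q and lysozyme. The spleen holds several macrophage populations, and the liver holds Kupffer cells in its sinusoids, so that a preparation from either organ can contain them.

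Levels below are log2 signals relative to the 75th percentile of the same array, which is level 0. That percentile was a signal of 3752 on the iHep array, 2081 on PH and 544.3 on MF. The iHep and PH arrays were read in 1 scan and MF in another, so a difference between scans and a difference from MF cannot be told apart. A gene was called well above background where the scanner software marked at least 1 of its probes so. Where the probe was not well above background in the dimmer sample, the fold is a bound ("at least"), set against that probe's own reading or, if higher, the lowest level that any detected probe reached on the same array, -7.32 on iHep, -6.89 on PH and -6.30 on MF. Spots of the same probe differed with a log2 SD of 0.10 on iHep, 0.12 on PH and 0.10 on MF. Different probes of a gene disagreed far more, with a pooled SD of the log2 difference of 0.85 between iHep and MF, 1.11 between PH and MF and 1.09 between iHep and PH, and that spread is the yardstick used below.

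The labelled cell types were checked against defining markers. Of all genes, 79.5% were above background in iHep, 84.5% in PH and 72.9% in MF, and the detection counts below are to be read beside these shares. Of 12 hepatocyte markers, 11 were above background in iHep, 12 in PH and 7 in MF. All 12 were at least 2-fold higher in PH than in MF, and 2 of the 11 compared were so in iHep. Those 2 were the liver transcription factor Hnf4a, at a level of 1.04 in iHep, 5.996 in PH and -5.62 in MF, and the drug-metabolising Cyp3a11, which was at least 32.6-fold higher in iHep than in MF. Albumin (Alb) stood at -4.75 in iHep, 6.67 in PH and -5.20 in MF. Of 12 fibroblast markers, 10 were above background in iHep, 12 in PH and 12 in MF, so that their levels and not their detection set MF apart. All 12 were at least 2-fold lower in iHep than in MF, and 10 were so in PH. The surface glycoprotein Thy1 stood at -6.15 in iHep, 0.72 in PH and 6.84 in MF. The proteoglycans Dcn and Lum were the 2 higher in PH, with Dcn at -5.45 in iHep, 3.76 in PH and 2.71 in MF. In MF all 9 measured macrophage genes also stood above background, beside the fibroblast genes, against 72.9% of all genes.

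By the probes used, the macrophage core genes were far lower in iHep than in MF. They were also far lower than in PH, except Trem2, which was only 2.74-fold lower in iHep than in PH. The probes used for C1qa, C1qc, Adgre1 and Lyz2 were not well above background in iHep, while Trem2, Csf1r, Ctss, C1qb and Lyz1 were still detected. Another probe of Csf1r read 1.32-fold higher in iHep than in MF. By the probes used, all 9 were lower in iHep than in MF by 2-fold or more, by at least 4503-fold for C1qc and 44.5-fold for Trem2 at the ends of the range. All 9 were also lower in iHep than in PH by 2-fold or more. PH and MF differed by less than 2-fold for 5 of the 9. Csf1r was higher in PH than in MF, and Lyz1, Lyz2 and Trem2 were lower. None of the 9 was at least 2-fold higher in iHep than in either. Across all named genes compared, 23.5% were at least 2-fold lower and 19.8% at least 2-fold higher in iHep than in MF. Against PH, 36.0% were lower in iHep by that fold and 23.2% higher. Between PH and MF, 25.4% were lower in PH and 30.8% higher, and the members' count within 2-fold is to be read beside these shares. The balance of these last 2 comparisons turned round with the scaling. Under quantile normalization 5594 genes were higher and 4599 lower in iHep than in PH, and 4192 were higher and 5518 lower in PH than in MF. The authors' deposited values turned the same way, with 4041 higher and 3205 lower in iHep than in PH and 2972 higher and 4101 lower in PH than in MF.

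**Figure D1:**
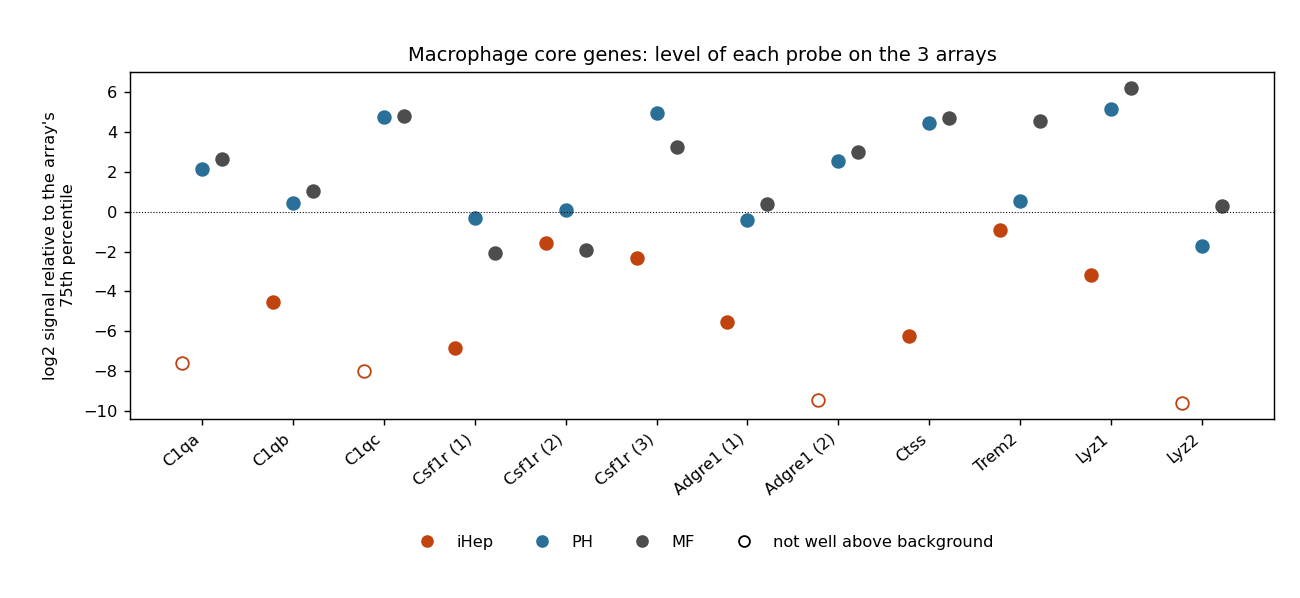
Level (log2 signal relative to the 75th percentile of the array, vertical axis) of each of the 12 probes of the macrophage core genes (horizontal axis) on the iHep, PH and MF arrays, 1 array per group. Open circles were not well above background. The iHep points lie lowest for every probe but the second of Csf1r, and PH and MF points lie close together for C1qa, C1qb, C1qc, Adgre1 and Ctss.

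Over the 9 genes the median level was -6.26 in iHep, 2.54 in PH and 3.24 in MF. The levels ran from -9.60 to -0.92 in iHep, from -1.70 to 5.19 in PH and from 0.31 to 6.24 in MF. In iHep 6 of the 9 genes were still called above background by at least 1 probe, against 9 of 9 in PH and 9 of 9 in MF. Over all 20577 genes the share above background was 79.5% in iHep, 84.5% in PH and 72.9% in MF. The detected members thus made up a smaller share in iHep and a greater one in PH and MF. With only 9 genes these counts are not read as a result about the members. RNA of whole cell pools was measured, and which cells carried these RNAs was not tested. Fewer macrophages, less of these RNAs per macrophage and less of them in other cells therefore cannot be told apart.

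The secreted members come first. C1QA, C1QB and C1QC are the 3 chains of C1q, which starts the classical complement pathway and is made mainly by macrophages rather than by hepatocytes. The stretches before the starts of C1qb and C1qc are shown because these neighbouring genes differed together between the arrays. They come from RefSeq on GRCm38.p6 and run 5′ to 3′ along the gene. The capitals mark GAGGAA and GGAAGT, core letters that the myeloid factor PU.1 can bind, and TGANTCA, each searched on both strands. TGANTCA takes any base at N, whereas an AP-1 site has G or C there, so it is looser than that site.
C1qb (chr4:136886201-136886450, minus strand): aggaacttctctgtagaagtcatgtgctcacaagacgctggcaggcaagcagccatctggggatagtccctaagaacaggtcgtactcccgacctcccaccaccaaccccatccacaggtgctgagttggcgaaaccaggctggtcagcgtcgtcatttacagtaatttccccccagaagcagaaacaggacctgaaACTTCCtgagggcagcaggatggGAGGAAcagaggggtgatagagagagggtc
C1qc (chr4:136892915-136893164, minus strand): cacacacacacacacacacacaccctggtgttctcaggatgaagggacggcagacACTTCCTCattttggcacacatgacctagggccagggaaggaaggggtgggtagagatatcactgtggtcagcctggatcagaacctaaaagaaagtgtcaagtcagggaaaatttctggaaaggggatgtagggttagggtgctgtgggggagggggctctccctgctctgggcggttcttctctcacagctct

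C1qc was printed 9 times among the spots kept, and these spots show how firmly each array was read. In iHep the spots read between 10.2 and 20.0 units of signal, in PH between 54688 and 59361, and in MF between 14753 and 15869. None of the 9 spots was well above background in iHep, whereas all 9 were so in PH and all 9 in MF. The log2 SD between them was 0.28 in iHep, 0.04 in PH and 0.04 in MF. C1qc stood at a level of -8.00 in iHep, 4.76 in PH and 4.81 in MF. It was thus at least 4503-fold lower in iHep than in MF and at least 4357-fold lower in iHep than in PH, while PH and MF differed by 1.03-fold, far less than the disagreement between probes.

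C1qa stood at -7.62 in iHep, not well above background, at 2.16 in PH and at 2.64 in MF. It was at least 997-fold lower in iHep than in MF, at least 714-fold lower in iHep than in PH, and 1.40-fold lower in PH than in MF. C1qb remained detectable in iHep, with a level of -4.53 against 0.46 in PH and 1.07 in MF. Its differences were 48.5-fold lower in iHep than in MF, 31.8-fold lower in iHep than in PH and 1.52-fold lower in PH than in MF. For the 3 chains, then, PH and MF lay within the spread between probes of a gene, and iHep lay far outside it.

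The stretches of C1qb and C1qc both hold GAGGAA and GGAAGT. In C1qc both are on the opposite strand and overlap, and in C1qb GGAAGT is on the opposite strand and GAGGAA on the strand shown. Among 32851 promoter stretches of the same length, 23.3% hold GAGGAA, 19.7% GGAAGT and 6.75% TGANTCA. Of the 7 members whose stretch was searched, Cd68 among them, 5 hold GAGGAA, 4 GGAAGT and 2 TGANTCA. The 2 are Cd68, with G at N, and Trem2, with A. The neighbouring duplicates Lyz1 and Lyz2 are both among the 4 with GGAAGT, at the same place. Because the motifs were chosen with these stretches in view, the counts cannot be read as an excess over the shares. A match is a description of the letters and does not show binding.

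The lysozymes are enzymes that cut bacterial cell walls. In mice Lyz2 is the form of macrophages and neutrophils, and Lyz1 is best known from Paneth cells of the gut. They are neighbouring duplicates, so their upstream stretches are shown to let them be compared, with the same letters in capitals.
Lyz1 (chr10:117292869-117293118, minus strand): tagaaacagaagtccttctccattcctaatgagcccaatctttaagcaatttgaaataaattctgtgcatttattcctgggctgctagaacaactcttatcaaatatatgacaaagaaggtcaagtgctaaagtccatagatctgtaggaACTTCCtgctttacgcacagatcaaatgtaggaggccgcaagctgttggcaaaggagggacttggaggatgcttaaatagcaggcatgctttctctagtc
Lyz2 (chr10:117282273-117282522, minus strand): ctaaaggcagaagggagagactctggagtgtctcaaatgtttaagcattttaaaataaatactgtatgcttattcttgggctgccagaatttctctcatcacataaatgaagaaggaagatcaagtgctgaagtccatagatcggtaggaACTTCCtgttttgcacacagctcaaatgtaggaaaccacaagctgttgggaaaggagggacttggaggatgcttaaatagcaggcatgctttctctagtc

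Set side by side without gaps, the Lyz1 and Lyz2 stretches share 152 of 250 bases (60.8%), and all of the 50 bases nearest the start are the same. Both hold GGAAGT on the opposite strand, beginning 100 bases before the start. Lyz1 stood at a level of -3.18 in iHep, 5.19 in PH and 6.24 in MF. It was 685-fold lower in iHep than in MF, 329-fold lower in iHep than in PH and 2.08-fold lower in PH than in MF, and this last value dropped just below 2-fold in some of the other ways of processing, where its log2 difference reached -0.95.

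Lyz2 was not well above background in iHep, at -9.60, and stood at -1.70 in PH and 0.31 in MF. This made it at least 199-fold lower in iHep than in MF, at least 49.2-fold lower in iHep than in PH, and 4.04-fold lower in PH than in MF. Both lysozyme genes therefore ran in the same order, iHep lowest and MF highest. Whether the probe of each gene also captured RNA of the other was not tested, since the probe letters were not used here. Of the 5 measured Paneth and secretory markers, 3 were above background in iHep, 5 in PH and 2 in MF, with summed signals of 0.06 in iHep, 32.3 in PH and 0.08 in MF in units of the array's 75th percentile. The Paneth sum was thus highest in PH, where Reg3b gave 26.4 of it, and the part of such cells in the Lyz1 signal of PH was not tested.

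Ctss encodes cathepsin S, a lysosomal protease that trims the invariant chain for antigen presentation. It stood at a level of -6.26 in iHep, 4.44 in PH and 4.69 in MF, by 1 probe that was above background on all arrays. Ctss was 1975-fold lower in iHep than in MF, which placed it 9th from the lowest among 14139 genes measured on both arrays. It was also 1657-fold lower in iHep than in PH, and PH lay only 1.19-fold below MF.

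Among the surface receptors Adgre1, an adhesion G protein-coupled receptor widely used to mark mouse macrophages, was read by 2 probes. The brighter probe stood at -9.47 in iHep, not well above background, at 2.54 in PH and at 2.99 in MF. By that probe Adgre1 was at least 1276-fold lower in iHep than in MF and at least 929-fold lower in iHep than in PH. The dimmer probe was above background on all arrays, with -5.54 in iHep, -0.44 in PH and 0.39 in MF. It gave 60.9-fold lower in iHep than in MF and 34.4-fold lower in iHep than in PH. PH over MF was a log2 difference of -0.46 by the brighter probe and -0.82 by the dimmer, both inside the spread between probes.

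Csf1r, the receptor for CSF1 and IL34, was the member whose probes disagreed in direction. Its brightest probe stood at -2.34 in iHep, 4.98 in PH and 3.24 in MF. By this probe Csf1r was 47.7-fold lower in iHep than in MF, 160-fold lower in iHep than in PH and 3.34-fold higher in PH than in MF. The first probe, with levels of -6.83 in iHep, -0.34 in PH and -2.05 in MF, gave 27.4-fold lower in iHep than in MF. The second probe stood at -1.55 in iHep, 0.07 in PH and -1.94 in MF, and so read 1.32-fold higher in iHep than in MF. All 3 probes ran the same way for PH over MF, at 3.29-fold, 4.02-fold and 3.34-fold higher, and for iHep over PH, at 90.2-fold, 3.06-fold and 160-fold lower.

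Trem2 is a lipid-sensing receptor that signals through the adaptor TYROBP and is prominent on lipid-laden and scar-associated macrophages. Its upstream stretch is shown because its values departed from those of the other members. It holds GAGGAA on the opposite strand and TGANTCA near the start, with A at N, in capitals.
Trem2 (chr17:48346151-48346400, plus strand): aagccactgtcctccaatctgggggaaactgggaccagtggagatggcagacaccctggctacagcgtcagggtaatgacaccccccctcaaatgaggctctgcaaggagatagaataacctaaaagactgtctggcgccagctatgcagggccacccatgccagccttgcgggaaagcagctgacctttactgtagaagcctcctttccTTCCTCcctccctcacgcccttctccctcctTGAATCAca

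Trem2 stood at a level of -0.92 in iHep, 0.53 in PH and 4.55 in MF, by 1 probe above background on all arrays. It was 44.5-fold lower in iHep than in MF, the smallest such difference among the 9 genes by the probes used, and 16.2-fold lower in PH than in MF, the greatest among them. iHep was only 2.74-fold below PH, against 31.8-fold or more for each of the other 8 by the probes used. Where the genes measured on both arrays are ordered by PH over MF, Trem2 came 390th from the lowest of 14553, and Csf1r 12018th. Trem2 thus lay nearer to iHep than to MF in PH, while for the C1q chains, Adgre1 and Ctss PH lay within 2-fold of MF.

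**Figure D2:**
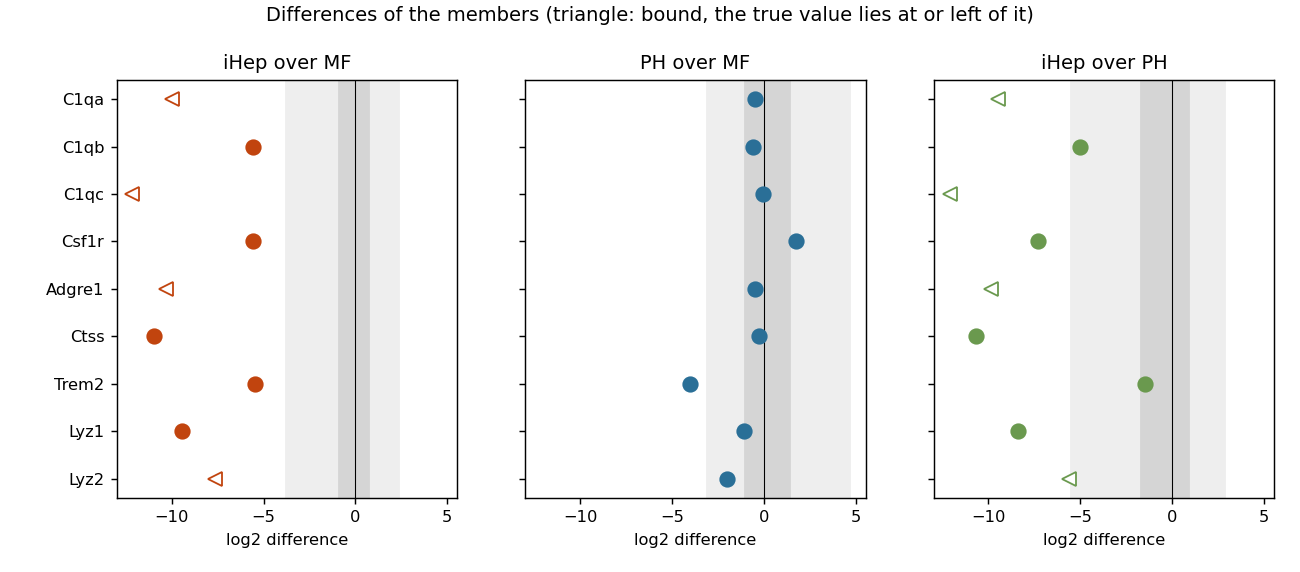
Log2 difference (horizontal axis) of the 9 macrophage core genes (vertical axis) in 3 panels, iHep over MF, PH over MF, then iHep over PH, with the range of the middle 50% of all named genes in dark grey and the range from percentile 5 to 95 in light grey. Triangles are bounds. All 9 genes lie left of the light band in the first panel, whereas only Trem2 does so in the second.

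Placed among all genes, the members varied in how far they stood out. The log2 differences or bounds ran from -12.14 for C1qc to -5.47 for Trem2 in iHep over MF, while percentile 5 of all 17165 genes compared was -3.75 and their median before bounds was 0.09. In iHep over PH they ran from -12.09 for C1qc to -1.45 for Trem2, against a percentile 5 of -5.53 and a median of -0.30 over 17996 genes. The members' median before bounds was -9.91 (-9.42 with bounds) against MF and -8.36 against PH. Those 2 comparisons share the iHep array, and the other pairs of comparisons share PH or MF, so their values are given side by side and not as independent results. Between PH and MF the members' median was -0.48, against 0.12 over 17779 genes, and 6 of the 9 lay within the spread between probes. How many of all genes lay within that spread was not counted. Their percentiles 25 and 75 were -1.02 and 1.42, so the 6 are not read as particular to the members.

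A difference of 8-fold or more below MF was found in iHep for all 9 members and for 6.88% of all genes. Below PH, 8 of the 9 reached it, Trem2 being the exception, against 13.1% of all genes. In PH only Trem2 lay 8-fold or more below MF, against 5.46% of all genes.

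The other genes of the same pathways were described from 7 lists, of which the first holds the ligands of CSF1R and the transcription factors of myeloid cells. Of its 16 genes 10 lay at least 2-fold below MF in iHep and 2 lay above it, with a median log2 difference of -1.40. Over all genes compared 23.5% were lower and 19.8% higher in iHep than in MF. The iHep counts of all 7 lists against MF are to be read beside these shares. Irf8, a factor of macrophage differentiation, was at least 212-fold lower. Irf5, a factor of inflammatory macrophages, was 27.3-fold lower, and Spi1, which encodes PU.1, at least 17.3-fold lower, standing at -7.73 in iHep, -4.20 in PH and -3.21 in MF. Csf1, a ligand, stood at 4.81 in iHep, 1.74 in PH and 6.06 in MF, so that it was 2.38-fold lower in iHep than in MF but 8.40-fold higher in iHep than in PH. The other ligand, Il34, stood at -1.53 in iHep, -3.98 in PH and -1.78 in MF, and iHep and MF differed by 1.19-fold. Zeb2 and Nr1h3, which encode a zinc finger repressor and the oxysterol receptor LXR alpha, were 2.17-fold and 2.04-fold higher in iHep than in MF by the brighter of 2 probes each. The dimmer Zeb2 probe read the other way, at -0.91 in iHep and 0.16 in MF, and the dimmer Nr1h3 probe read 1.39-fold higher in iHep than in MF, within 2-fold.

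In PH 4 genes of this list were lower than in MF and 5 were higher, the median being -0.11. Over all genes compared 25.4% were lower and 30.8% higher in PH than in MF, so these counts lie near those of any genes. The same shares apply to the PH counts of the lists below, several of which also lie near them. Csf1 was 20.0-fold lower in PH, and Irf8, Nr1h3 and the dendritic cell factor Batf3 were 3.39-fold, 9.52-fold and 9.36-fold higher. Spi1 was 1.97-fold lower.

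The next list holds the partners of TREM2 and genes of lipid-laden macrophages. Of its 15 genes compared 9 were lower in iHep than in MF and 1 was higher, with a median of -2.34. The adaptor Tyrobp stood at 0.27 in iHep, 1.88 in PH and 2.80 in MF, and was 5.74-fold lower in iHep than in MF. The kinase Syk, which acts below TYROBP, was at least 324-fold lower, the lipid carrier and TREM2 ligand Apoe 45.5-fold lower, and the membrane protein Ms4a7 at least 901-fold lower. Gpnmb, a glycoprotein of lipid-laden macrophages, stood at 3.75 in iHep, -2.04 in PH and 4.72 in MF, so that iHep and MF differed by 1.95-fold while PH was 108-fold below MF. The lysosomal tetraspanin Cd63 also ran this way, 9.92-fold lower in PH than in MF but 1.84-fold lower in iHep than in MF. Trem3 was at least 3.21-fold higher in iHep than in MF and stood at -4.62 in iHep. It was the only gene of this list higher by 2-fold, and under normexp background correction none was. Between PH and MF 7 of 16 were lower in PH and 3 higher (median -0.82), and Ms4a7 was 42.2-fold lower, while Treml2 was at least 13.6-fold higher.

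The proteases C1r and C1s, which bind C1q to form C1, are made by other cells as well. C1ra stood at 3.18 in iHep, 5.68 in PH and 3.69 in MF, so that it was 1.42-fold lower in iHep than in MF by the brighter of 2 probes. The dimmer probe, at -0.28 in iHep, 3.15 in PH and 0.77 in MF, read 2.06-fold lower and so passed 2-fold. C1s1 was 11.2-fold lower in iHep than in MF and 1.76-fold higher in PH than in MF. C3, the central complement protein, differed by 1.04-fold between iHep and MF by the brighter of 2 probes and by 1.34-fold by the other, and was 34.8-fold higher in PH than in MF by the brighter. Of the 16 genes of this list 11 were lower in iHep than in MF and none higher, with a median of -2.83. The anaphylatoxin receptors C5ar1 and C3ar1 were at least 126-fold and 58.4-fold lower, and the C1 inhibitor Serping1 61.3-fold lower. The integrin chain Itgam, part of complement receptor 3, was 5.89-fold lower by the brightest of 3 probes, 3.79-fold lower by another and 1.44-fold lower by the remaining one. Its probes disagreed between PH and MF, the brightest reading 2.73-fold lower in PH and the others 1.67-fold and 4.41-fold higher. Compared with MF, PH had 5 of these genes lower and 6 higher (median 0.24). Serping1 and C4b, which liver cells secrete, were 17.1-fold and 9.17-fold higher in PH, whereas C3ar1 and C5ar1 were 6.47-fold and 6.09-fold lower.

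The list of other cathepsins and lysosomal genes followed Ctss in direction for most of its members. Of 18 genes 12 were lower in iHep than in MF and 1 was higher, with a median of -1.63. Ctsb, Ctsd and Ctsl, proteases of most cells, were 4.94-fold, 6.46-fold and 3.17-fold lower and stood at levels of 4.57, 3.83 and 4.17 in iHep. Ctsf was 29.5-fold and Ctsk, the collagen-cutting cathepsin K, 19.1-fold lower. The inhibitor cystatin C (Cst3) was 1.93-fold lower. Cd74, the invariant chain that cathepsin S trims, ran the other way, with -1.03 in iHep, 2.28 in PH and -4.41 in MF, so that it was 10.5-fold higher in iHep and 103-fold higher in PH than in MF. PH had 6 of these genes lower than MF and 5 higher (median -0.58), and under normexp background correction 5 were lower and 2 higher. Ctsk was 70.6-fold, Ctsd 5.11-fold and Ctsz 3.75-fold lower in PH.

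Among 21 phagocytic and scavenger receptors compared, 15 were lower in iHep than in MF and 3 were higher, with a median of -2.26. Sirpa, the receptor of the signal CD47, was at least 2261-fold lower, and the Fc receptors Fcgr3 and Fcgr2b 203-fold and at least 199-fold lower. Clec10a, a lectin of macrophages and dendritic cells, was 7.06-fold higher, with -0.46 in iHep, 0.31 in PH and -3.28 in MF. Of 22 compared between PH and MF, 5 were lower in PH and 9 higher (median 0.79). Timd4, a receptor for dying cells on resident macrophages that include Kupffer cells, was at least 75.1-fold higher in PH, Cd163, the haemoglobin scavenger receptor, at least 12.1-fold higher, and Clec10a higher by a log2 difference of 3.59. Havcr2, the checkpoint receptor TIM-3, was 14.6-fold lower in PH than in MF. Neither Timd4 nor Cd163 was well above background in MF.

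The pan-leukocyte and phagocyte oxidase genes had the lowest median of the 7 lists in iHep over MF. Of 21 genes 19 were lower and none was higher, with a median of -4.29. Cyba, a subunit of the phagocyte oxidase, was 476-fold lower, the surface glycoprotein Cd52 at least 353-fold and the signalling protein Vav1 at least 244-fold lower. Ptprc, the leukocyte antigen CD45, stood at -5.56 in iHep, -1.81 in PH and -1.96 in MF, and was 12.1-fold lower in iHep than in MF and 1.11-fold higher in PH than in MF. Only 3 of 22 were lower in PH than in MF and 5 higher (median 0.41). The kinase Fgr and the TLR4-related Ly86 were 8.30-fold and 5.57-fold higher in PH, and Cyba was 4.07-fold lower.

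The last list holds relatives of the members in sequence or in signalling. Of 18 genes compared 12 were lower in iHep than in MF and 3 higher, with a median of -1.46. The GM-CSF receptor chains Csf2ra and Csf2rb were 88.0-fold and 58.2-fold lower by the probes used, and C1qtnf2, which carries a C1q-type domain, at least 47.7-fold lower. A second Csf2rb probe, above background on all arrays, stood at -5.20 in iHep, -3.44 in PH and -4.33 in MF, only 1.83-fold lower in iHep than in MF. The lysozyme-like gene Lyzl6 was 2.32-fold higher, and under normexp background correction 1 gene of the list was higher in place of 3. In PH 5 of 21 were lower than in MF and 9 higher (median 0.39). PH exceeded MF by at least 166-fold for Adgre4, an adhesion receptor of the same family as Adgre1 that was not above background in MF. By the same comparison the endothelial adhesion receptor Adgrl4 was higher by at least 89.8-fold and the stem cell factor receptor Kit by at least 48.5-fold. C1qtnf6 was at least 11.9-fold lower in PH.

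**Figure D3:**
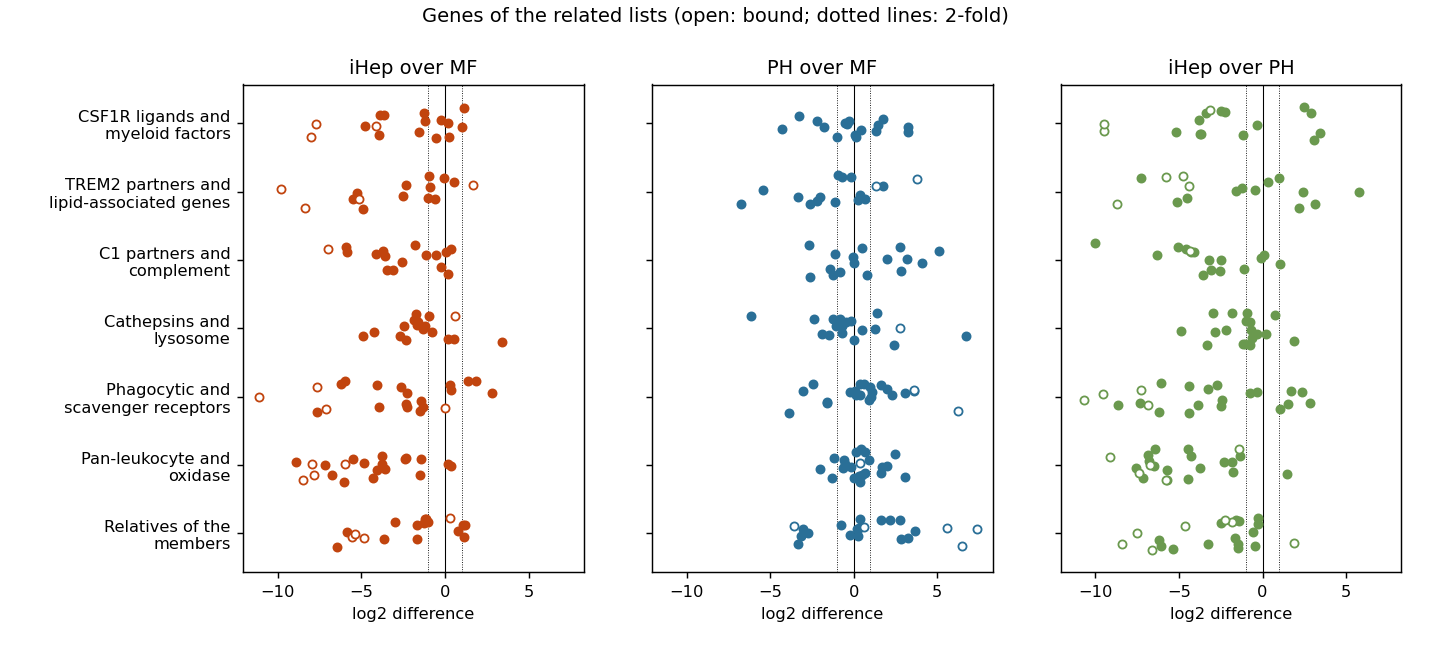
Log2 difference (horizontal axis) of each gene of the 7 related lists (vertical axis, 1 point per gene, shifted slightly up or down for legibility) in 3 panels, iHep over MF, PH over MF, then iHep over PH. Open points are bounds and dotted lines mark 2-fold. The pan-leukocyte genes lie farthest left for iHep over MF by their median of -4.29, while for PH over MF the points of each list fall on both sides of 0.

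For iHep over PH the lists had 11 of 16, 9 of 16, 13 of 16, 9 of 18, 15 of 22, 21 of 22 and 16 of 21 genes at least 2-fold lower, in the order above. The genes higher in iHep than in PH numbered 4, 4, 1, 1, 5, 1 and 1. The medians were -2.92, -1.40, -3.36, -0.97, -3.56, -5.73 and -1.94. Over all genes compared 36.0% were at least 2-fold lower and 23.2% higher in iHep than in PH. The lists' counts of 4, 4 and 5 higher lie near that share.

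Markers of other cells that could carry some of these genes were read beside them. Of 9 measured neutrophil markers 4 were above background in iHep, 9 in PH and 4 in MF, with summed signals of 4.17 in iHep, 59.5 in PH and 0.92 in MF in units of the array's 75th percentile. Elane, neutrophil elastase, gave most of the sum in iHep, at a level of 2.03 in iHep, 5.07 in PH and -0.52 in MF. Without it the sums were 0.10 in iHep, 25.9 in PH and 0.22 in MF, so that iHep then lay below MF. The calgranulin S100a9 was not well above background in iHep or MF and stood at 4.12 in PH. The calgranulin S100a8 was above background on all arrays, at -6.51 in iHep, 2.57 in PH and -3.53 in MF. Of 8 dendritic cell markers 5 were above background in iHep, 7 in PH and 3 in MF, with sums of 21.0 in iHep, 44.6 in PH and 41.9 in MF. Most of these sums came from Siglech, at a level of 4.38 in iHep, 5.42 in PH and 5.39 in MF, and without it the sums were 0.19 in iHep, 1.69 in PH and 0.13 in MF. Of 12 markers of T, NK and B cells 6 were above background in iHep, 12 in PH and 7 in MF, with sums of 3.11 in iHep, 18.9 in PH and 2.20 in MF. Endothelial markers, 8 in all, numbered 5 in iHep, 8 in PH and 6 in MF, with sums of 0.76 in iHep, 85.0 in PH and 1.78 in MF. The neutrophil, dendritic cell, lymphocyte and endothelial sums were thus highest in PH, though the dendritic cell sum lay close to that of MF unless Siglech was left out. The part of these cells in the values of the macrophage core genes in PH was not tested. In MF the neutrophil markers S100a9, Ltf, Ngp, Retnlg and Cxcr2 were not well above background. Elane, S100a8, Camp and Mpo were so in MF, at levels of -0.52, -3.53, -3.55 and -5.47.

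The genes whose pattern lay nearest to the members' own were sought among all other genes above background on at least 1 array. Levels were held at the floor of each array, centred on the gene's mean over the 3 arrays, and compared by their Euclidean distance to the members' median profile, which was -5.93 in iHep, 3.00 in PH and 3.48 in MF. The 5 nearest were Gpc4, a cell surface glypican, at a distance of 0.49, Thbd, thrombomodulin, at 0.50, Cd300c2, a receptor of the CD300 family on myeloid cells, at 0.61, Anpep, aminopeptidase N, at 0.61, and Prxl2b at 0.73. Anpep stood at -4.44 in iHep, 3.78 in PH and 4.43 in MF, and the other 4 were not well above background in iHep, so that their distance there rests on the floor of that array. For the members themselves the distance was between 0.55 for C1qa and 5.30 for Trem2. With 3 arrays such likeness is a weak description.

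**Figure D4:**
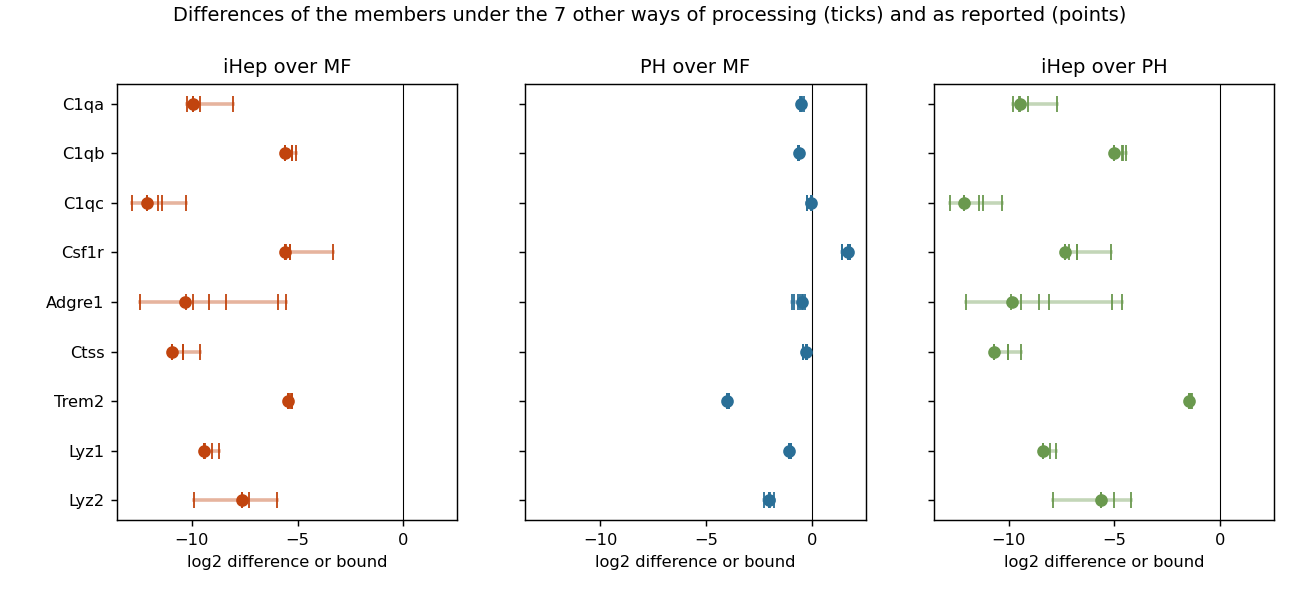
Log2 difference or bound (horizontal axis) of the 9 macrophage core genes (vertical axis) for the 3 comparisons, with points as reported and ticks for up to 7 other ways of processing the same arrays. Every value for iHep over MF and iHep over PH stays left of 0, and Adgre1 moves most, between -12.46 and -5.57 for iHep over MF.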

How the data were processed

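Scanner text files of 3 one-colour arrays were used. The software was Feature Extraction 11.0.1.1 per the file headers, whereas the submitters' processing notes name version 9.1. The deposited intensity is the software's processed signal on a linear scale, background-subtracted and detrended within the array per the file headers, with nothing done between arrays. The authors' deposited value table holds log2 values of 26049 probes, whose scale and centring are not given in the sources used here. Its columns have medians of 7.01, 7.07 and 7.02 for iHep, PH and MF and correlate with the log2 scanner values at 0.998, 0.994 and 0.997.

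Control spots were dropped, as were spots the software marked as uneven or as outliers among their copies (230, 383 and 190 of 43020 on iHep, PH and MF). No spot was saturated. Log2 processed signals minus the array's 75th percentile were averaged over spots of a probe. Probes were named by unversioned accession through a RefSeq table of GRCm38.p6: 27234 of 39429 probes got 1 symbol, 0 got more than 1 and 12195 got none. For genes with several probes the one with the highest mean level was used. Groups were taken from sample titles. A difference counted at 2-fold, and no test was possible. The counting step was tested on simulated data of 20577 genes for iHep over MF, in which 200 of 200 changed genes were recovered. The changed genes were drawn from those above background on all arrays and shifted well past 2-fold. The noise added was far below the spread between probes of a gene. Full recovery was thus built in, and the run checks the counting code but not the bounds or the precision.

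Named genes were all members, a list of anchor genes, up to 3 genes of each related list that differed most in the list's prevailing direction and 1 in the opposite direction, against MF, and the 5 nearest profiles. Some genes that this rule names are not reported here. Markers of other cell types are given as values beside these. The members, lists and alternatives were chosen with earlier results of these data known. The motifs were chosen with the promoter sequences in view. Alternatives were normexp with an offset of 50 on median signals (R 4.3.3 with limma 3.58.1), quantile normalization, the authors' values, scaling to probes above background on all arrays, the mean of a gene's probes, no filter on dim probes, only probes above background on all arrays, and thresholds of 4-fold and 1.5-fold. Python 3.11.15 was used. The number of arrays limits the precision.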

Additional observations from a re-analysis of the deposited data

How the results depend on the processing

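Of 171 values of single members under the alternatives, 149 moved by less than the spread between probes and 22 moved by more, none changing direction where the difference was at least 2-fold. For iHep over MF all members compared were at least 2-fold lower under each of the 7 other ways of processing. These were 9 members or, in the authors' values and with only probes above background on all arrays, 6. The other 2 alternatives change only the threshold and not the values, and all 9 members also passed 4-fold. The median over the members for iHep over MF moved to -8.08 under normexp, -5.47 in the authors' values and -5.76 with only probes above background on all arrays, where C1qa, C1qc and Lyz2 drop out by construction. For iHep over PH it moved to -5.72 in the authors' values and -6.21 with those probes. For PH over MF the members at least 2-fold lower numbered 1 in the authors' values, 2 under normexp, quantile normalization, only probes above background on all arrays and the 4-fold threshold, and 4 at 1.5-fold, and those higher numbered 0 at 4-fold. Adgre1 lay between -12.46 and -5.57 for iHep over MF, and Csf1r reached -3.32 with the mean of its probes. Of 525 counts and medians of the related lists, 460 stayed close and 65 moved, 22 of these at the 4-fold threshold and 22 in the authors' values, which cover fewer genes. In the authors' values the list of TREM2 partners had 5 genes lower for iHep over MF with a median of -0.48, and the lysosomal list 4 lower. Over all genes, normexp shifted the median by -0.73 for iHep over MF and -0.63 for PH over MF and left 2002 and 3184 genes at least 2-fold higher, against 3404 and 5484. Higher genes then made up 27.6% and 38.9% of those differing, against 45.7% and 54.9%. Quantile normalization shifted the median by 0.51 for iHep over PH and -0.31 for PH over MF, with 54.9% and 43.2% higher, against 39.2% and 54.9%. The authors' values had 55.8% higher for iHep over PH, and 2972 higher and 4101 lower genes for PH over MF. In these values 2617 genes were lower for iHep over MF and 3205 for iHep over PH, against 4038 and 6477, among fewer genes. With only probes above background on all arrays 3611 were higher for PH over MF and 3996 lower for iHep over PH. At 4-fold the higher and lower genes numbered 1196 and 1991 for iHep over MF, 3272 and 1994 for PH over MF and 1803 and 3849 for iHep over PH, against 4181 and 6477 at 2-fold in this last comparison and 4513 lower at 2-fold for PH over MF. At 1.5-fold 5115 genes were higher for iHep over MF. Signal over background limits C1qa, C1qc, Lyz2 and the brighter Adgre1 probe in iHep, for which only bounds exist. No paired analysis was possible because each group is 1 array.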
